A study of Mus musculus with 24 samples.

Results

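The effect of a high fat diet (HFD) against standard diet (SD) was described in the ventromedial hypothalamus (VMH) of mice labelled Gfap-Bmal1 cKO, in which the clock gene Bmal1 was deleted conditionally with Gfap, a gene of astrocytes, as the driver. The comparison held 6 arrays, 3 per diet, chosen by their titles from 24 arrays of VMH and brown fat. Control mice on the same diets gave 6 further VMH arrays. The diets had been eaten for 16 weeks, and the VMH was dissected from brain sections of 100 µm. The question of the study was what the astrocyte clock does for energy expenditure. Age, sex, time of day, strain and the alleles of the controls were not given in the sources used here. Whether each array held its own animal is not stated in the labels, so p-values reflect only the scatter among arrays, possibly technical.

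The VMH is a hypothalamic nucleus whose glutamatergic neurons, many of them marked by the transcription factor SF-1 (Nr5a1), regulate energy expenditure, glucose balance and sympathetic drive to brown fat. Prolonged high fat feeding is known for hypothalamic inflammation, reactive astrocytes, leptin resistance and stress of the endoplasmic reticulum (ER). Glucocorticoids and the circadian clock both act on these cells.

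The values are deposited log2 signals of Affymetrix arrays, so a difference of 1 is a doubling. Features entered the test if they averaged at least 5.3885 in the 12 VMH arrays, the median over features, which left 16738 genes. Their array means lay between 8.52 and 8.63, and the number of arrays limits the precision.

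Bmal1 (Arntl), the targeted gene, had log2 signals of 8.93, 9.26 and 9.32 on SD and of 9.54, 8.99 and 9.04 on HFD in the arrays labelled cKO. In control arrays it read 8.58, 8.80 and 8.49 on SD and 9.22, 8.83 and 8.80 on HFD. The arrays labelled cKO were not below the controls. The labels do not give the deleted part of the gene, so it is unknown whether this feature reads the deleted part, and a deletion in astrocytes leaves Bmal1 in all other cells. Its diet difference in the arrays labelled cKO was 0.0209 ± 0.168 (difference ± SE, limma adjusted p = 0.982). Fabp7, a lipid chaperone of astrocytes and neural progenitors that earlier results of these arrays linked to genotype, lay between 15.92 and 16.21 in the arrays labelled cKO and between 11.12 and 12.92 in controls.

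Markers of the VMH were well above the filter in all 6 arrays, with Fezf1, a transcription factor of VMH neurons, between 14.78 and 15.60 and Nr5a1 between 7.53 and 8.25. Peptides of neighbouring nuclei were present too. Pmch, the precursor of melanin-concentrating hormone of the lateral hypothalamus, lay between 14.20 and 16.39, and Avp, the precursor of vasopressin, between 13.01 and 14.90. In bulk RNA, fewer cells of a type and less RNA per cell cannot be told apart.

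HFD replicate 2 of the arrays labelled cKO stood apart. It read 17.37 for Prl (prolactin), where the other 11 VMH arrays lay between 4.11 and 4.58, and 13.74 for Gh (growth hormone), where they lay between 4.80 and 5.47. Cga and Fshb, subunits of pituitary hormones, read 12.38 and 8.91 there against at most 5.74 and 4.26 elsewhere. The 5.74 of Cga came from HFD replicate 3, where all remaining arrays read at most 4.80. Tshb, another such subunit, read 5.91 in HFD replicate 2, 5.55 in replicate 3 and at most 4.98 elsewhere. Prl and Gh were not raised in replicate 3, at 4.44 and 5.01. HFD replicate 2 was also farthest out on the first principal component, which held 19.7% of the variance. The leading counts below are therefore given with and without HFD replicate 2, which leaves replicate 3 in.

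Snord58b, a small nucleolar RNA (snoRNA), was the only gene of 16738 (0.00597%) that passed the adjusted threshold of 0.05, and it rose. At an unadjusted limma p under 0.05, 1218 genes (7.28%) were higher on HFD and 373 (2.23%) lower, 1591 (9.51%) together. The 3 arrays of each diet did not overlap for 1969 genes higher on HFD (11.8%) and 952 lower (5.69%). Without HFD replicate 2, 758 genes were higher and 293 lower at that p, and Snord58b again passed alone. The median difference over all tested genes was 0.026. All other genes named below failed the adjusted test, and their values are given as measured.

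**Figure D1:**
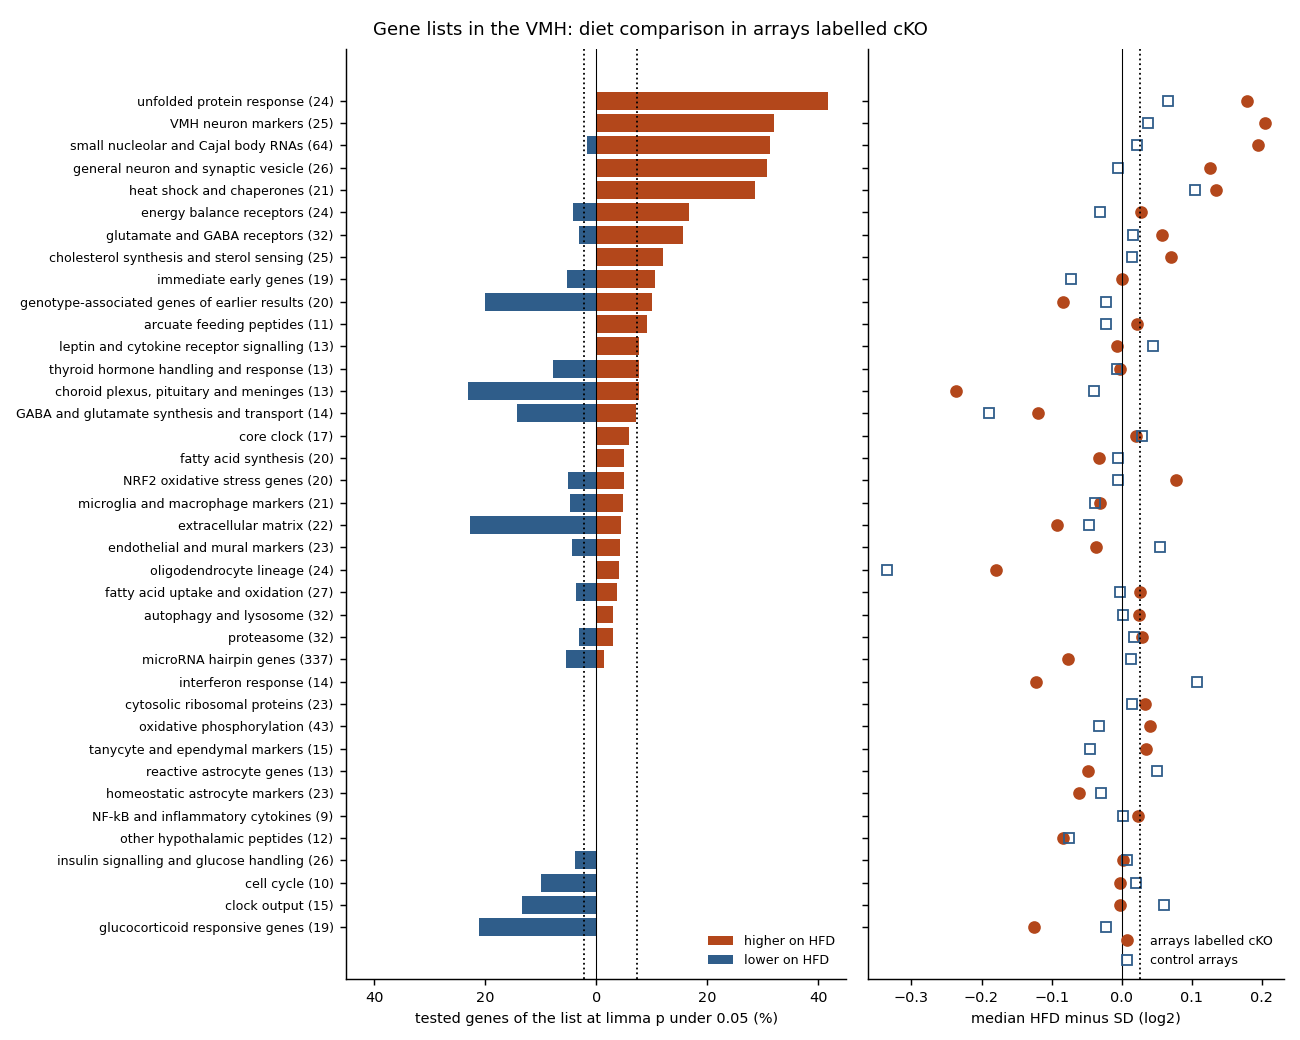
Left, the share of each gene list's tested genes (number in brackets) at an unadjusted limma p under 0.05 in the arrays labelled cKO, higher on HFD to the right and lower to the left, with dotted lines at 7.28% and 2.23% for all genes. Right, the median log2 difference, HFD minus SD, of each list in arrays labelled cKO (filled circles) and control arrays (open squares), with a dotted line at 0.026 for all genes in the arrays labelled cKO. The list of 5S ribosomal RNA genes, with 53 of 61 higher, is left out of both panels. Of the lists shown, the unfolded protein response, with 10 of 24 genes higher, leads on the left.

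Genes of small RNAs were prominent among the higher values. snoRNAs guide the chemical modification of ribosomal and other RNAs in the nucleolus, and most are cut from introns of host genes. Snord58b read 13.77, 13.81 and 13.92 on SD and 14.60, 14.85 and 14.67 on HFD. All 3 HFD arrays were above all 3 SD arrays, by more than the range within either diet. Snord58b rose by 0.872 ± 0.0727 (SE), or 1.83-fold, with a limma adjusted p of 0.00228 and a 95% interval of 0.712 to 1.03. A second feature of Snord58b differed by 0.841. Control arrays read 13.91, 14.01 and 13.92 on SD and 14.14, 14.10 and 14.08 on HFD, a difference of 0.163 ± 0.0727. The control diets did not overlap either, but by a smaller margin. The interaction of genotype and diet for Snord58b was 0.709 ± 0.103 with an unadjusted limma p of 2.81e-05, and it did not pass the adjustment (adjusted p = 0.47). The call was lost when the fit held only the 6 arrays compared (limma adjusted p = 0.14).

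Of 64 small nucleolar and Cajal body RNAs tested, 20 were higher and 1 lower at an unadjusted limma p under 0.05, beside 7.28% and 2.23% of all genes. Their median difference was 0.195 in the arrays labelled cKO and 0.022 in controls, and without HFD replicate 2 the counts were 12 and 1 with a median of 0.158. Without SD replicate 3 they were 12 and 2, with a median of 0.194. Snord55 read 12.79, 13.48 and 12.92 on SD and 14.26, 14.61 and 14.20 on HFD, a difference of 1.29 ± 0.199 (limma adjusted p = 0.133). Snord49b was also higher by 1.29 (± 0.234) and Snord49a by 1.08 (± 0.218), each with HFD arrays above all SD arrays. Snord70 was higher by 0.968 (± 0.164), Snord82 by 0.921 (± 0.168) and Scarna17, an RNA of the Cajal body, by 0.65 (± 0.113). Snord55, Snord70 and Snord82 were higher on HFD in control arrays as well, by 0.676, 0.741 and 0.685, at unadjusted limma p-values of 0.0061, 0.00089 and 0.0019. Their interactions did not pass the test. The exception in direction was Snora20, lower by 0.312 (limma adjusted p = 0.472).

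Protein-coding genes whose span holds these snoRNAs did not show the same differences. Of the 20 snoRNAs higher at an unadjusted p, 7 lay within a protein-coding gene that was itself tested, 6 genes in all, and 0 of these hosts reached an unadjusted limma p under 0.05, with differences between -0.055 and 0.134. Nop58, a core protein of the snoRNA particle, holds Snord70 and Snord11 and differed by -0.0552 ± 0.0998. Ncl, the gene of nucleolin, holds Snord82 and differed by -0.0426 ± 0.0915. In both hosts the diets overlapped. Snord58b lies within Rpl17, a ribosomal protein gene not tested here. Nop58 and Ncl were named after their values were seen.

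RNA classes by annotation were counted after the data were seen, over features with distinct values. Of all such features, 6.83% were higher and 2.27% lower at an unadjusted limma p under 0.05. Of 515 features of all annotated snoRNAs, most of them outside the list above, 97 (18.8%) were higher and 16 (3.11%) lower at an unadjusted limma p under 0.05. Their median of 0.047 was lower than the 0.195 of that list. Of 458 features of small nuclear RNAs, the RNA cores of the spliceosome and its relatives, 141 (30.8%) were higher and 4 lower at an unadjusted limma p under 0.05, with a median difference of 0.223. The mean over the small nuclear RNA features was 8.93, 9.06 and 8.83 on SD and 9.03, 9.19 and 9.14 on HFD. These means overlapped between diets, with HFD replicate 2 the highest. Of 21 features of 5S ribosomal RNA, 19 were higher and 0 lower, with a median of 0.869 against 0.042 in controls. The 61 tested 5S genes gave only these 21 distinct sets of values. Class counts were not made without HFD replicate 2. Over the 61 5S genes, 53 were higher with that array and 46 without it, with medians of 1.188 and 0.883. Whether the features of a class read separate RNAs was not tested, so these are no counts of independent responses. The mean over these 5S features was 10.38, 10.07 and 10.04 on SD and 10.62, 11.47 and 10.98 on HFD, highest in HFD replicate 2. Control arrays ranged from 10.29 to 11.07. The cKO arrays on SD held the lowest 2 means of all 12 arrays. Of 11809 protein-coding features, 611 (5.17%) were higher and 274 (2.32%) lower, with a median of 0.017. In controls 848 of them were higher and 210 lower, with a median of 0.02, so more protein-coding features were higher there. How far the yield of short RNAs in each extract moved with these values was not tested.

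MicroRNA genes had more low than high values, a balance that rested on single arrays. The array reads their hairpin precursors, from which short RNAs that repress messenger RNAs are cut, and it does not separate the arms. Of 337 microRNA genes tested, a list added after the data were seen, 18 were lower and 5 higher at an unadjusted limma p under 0.05, beside 2.23% and 7.28% of all genes. The median difference was -0.077 in the arrays labelled cKO and 0.013 in controls. Without HFD replicate 2 the counts were 10 lower and 6 higher. Without SD replicate 1 they were 10 lower and 8 higher, with a median of -0.005 and 166 of 337 differences positive. The fit of only the groups compared gave 40 lower and 8 higher, and array weights 31 and 9. The 5 microRNA genes with the lowest statistics were Mir100, Mir493, Mir15a, Mir337 and Mir543, and both mature arms of each are shown to identify what the hairpins yield. The seed, bases 2 to 8, which pairs with targets, is in capitals, and the sequences are from RefSeq, build GRCm38.p6, where 246 of the 337 genes had an entry.
miR-100-5p: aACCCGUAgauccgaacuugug
miR-100-3p: aCAAGCUUgugucuauagguau
miR-493-5p: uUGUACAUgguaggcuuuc
miR-493-3p: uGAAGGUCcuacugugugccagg
miR-15a-3p: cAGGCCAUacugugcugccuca
miR-15a-5p: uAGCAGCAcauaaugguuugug
miR-337-5p: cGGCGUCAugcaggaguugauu
miR-337-3p: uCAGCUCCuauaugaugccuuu
miR-543-5p: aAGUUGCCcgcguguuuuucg
miR-543-3p: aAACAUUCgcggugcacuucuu
No seed is shared among these 10 sequences. miR-100-5p lies at chr9:41531437-41531458, on the plus strand. Mir493, Mir337 and Mir543 lie on chromosome 12, with miR-493-5p at chr12:109580243-109580261, miR-337-5p at chr12:109585818-109585839 and miR-543-5p at chr12:109717269-109717289, all on the plus strand, in an imprinted region known for its many microRNAs. miR-15a-5p lies at chr14:61632075-61632096 on the minus strand.

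Mir100 had the lowest statistic of all tested genes. It read 7.13, 7.26 and 7.23 on SD and 6.44, 6.59 and 6.53 on HFD. The diets were apart by more than the range within either. The difference was -0.69 ± 0.0883 (limma adjusted p = 0.076), against -0.085 in controls. Mir493 read 11.33, 11.26 and 11.30 on SD and 10.77, 10.23 and 10.25 on HFD, a difference of -0.883 ± 0.142 (limma adjusted p = 0.133). Its control arrays lay between 11.25 and 11.67 on both diets. Mir15a differed by -0.469 ± 0.0841, Mir543 by -0.586 ± 0.159 and Mir337 by -0.362 ± 0.0734, each with no overlap between diets. Unadjusted interaction p-values from limma were 0.00054 for Mir100, 0.00031 for Mir15a and 0.0024 for Mir493, and none passed the adjustment. With array weights, Mir100, Mir493 and Mir15a passed the adjusted test, at 0.0128, 0.0456 and 0.0456.

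**Figure D2:**
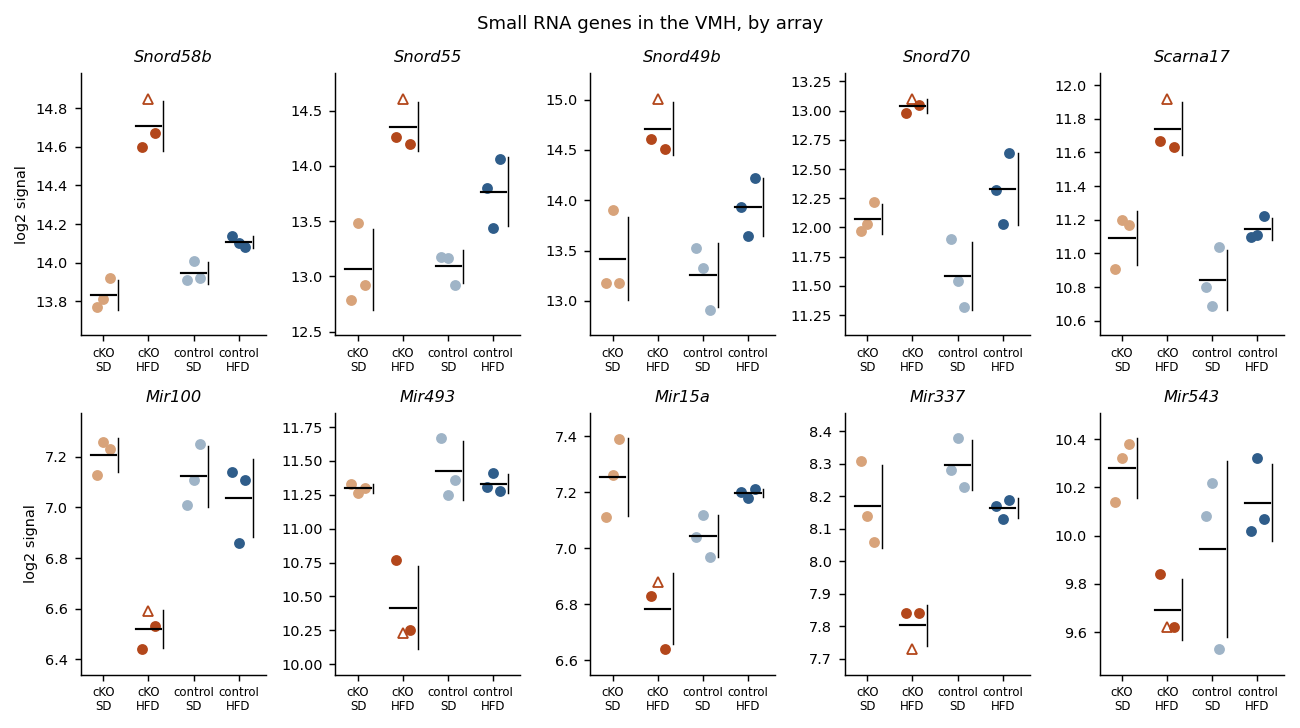
Log2 signal of 5 snoRNA or Cajal body RNA genes (top) and 5 microRNA genes (bottom) in each VMH array, by genotype and diet. Points are arrays, horizontal lines means and vertical lines ± 1 SD (n = 3); the open triangle is HFD replicate 2 of the arrays labelled cKO. In the arrays labelled cKO all HFD points are above the SD points in the top row and below them in the bottom row.

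Chaperones of the ER leaned higher on HFD in the arrays labelled cKO. The unfolded protein response is the programme by which cells raise ER chaperones when unfolded proteins gather there. Of its 24 tested genes, 10 were higher and 0 lower at an unadjusted limma p under 0.05, beside 7.28% and 2.23% of all genes, and 21 had a positive difference. The median was 0.179, against 0.066 in controls, where 0 genes reached that p. Without HFD replicate 2 the count was 3, with a median of 0.117. The 10 genes were Creld2, Pdia3, Sdf2l1, Calr, Dnajb11, Hspa5, Pdia6, Atf4, Xbp1 and Herpud1.

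Creld2, an ER protein that assists folding, read 8.22, 8.47 and 8.53 on SD and 8.98, 9.21 and 8.89 on HFD, with no overlap. The difference was 0.622 ± 0.154 (limma adjusted p = 0.237), and 0.531 without HFD replicate 2. Its control arrays read 8.69, 8.84 and 8.19 on SD and 8.71, 8.66 and 8.51 on HFD, which overlapped. Hspa5, the gene of the ER chaperone BiP, read 12.56, 12.46 and 12.59 on SD and 12.94, 13.31 and 12.85 on HFD. HFD replicate 2 was the highest, and all HFD arrays lay above the SD arrays. Hspa5 was higher by 0.499 (limma adjusted p = 0.403), and by 0.359 without that array. Calr (calreticulin, a lectin chaperone) was higher by 0.503 ± 0.171 and Pdia6, a disulfide isomerase, by 0.516 ± 0.189. Without HFD replicate 2 these differences were 0.34 and 0.365. Atf4, a transcription factor that translation stress induces, read 7.93, 7.94 and 8.03 on SD and 8.17, 8.16 and 8.20 on HFD, so here HFD replicate 2 was not the highest. Xbp1, the transcription factor whose spliced form drives ER chaperone genes, was higher by 0.339 ± 0.14. The array does not separate its spliced form.

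The promoters of these genes were searched for the ER stress response element, CCAAT and CCACG with 9 bases of any kind between them, on both strands of the 250 bases before the RefSeq start (GRCm38.p6). Of 22 genes of the list with a promoter entry, 7 held it, or 31.8%, against 35 of 27025 genes, or 0.13%. The genes with a match were Calr, Canx, Creld2, Dnajc3, Hsp90b1, Hspa5 and Pdia6, and 4 of them were among the 10 higher at an unadjusted p. Those 4 promoters are shown, with the match in capitals.
Creld2: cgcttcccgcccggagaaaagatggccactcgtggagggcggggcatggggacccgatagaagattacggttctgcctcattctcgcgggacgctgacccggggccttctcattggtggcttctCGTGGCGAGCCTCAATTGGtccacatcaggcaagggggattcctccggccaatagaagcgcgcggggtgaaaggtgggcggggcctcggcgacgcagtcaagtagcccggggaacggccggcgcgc
Hspa5: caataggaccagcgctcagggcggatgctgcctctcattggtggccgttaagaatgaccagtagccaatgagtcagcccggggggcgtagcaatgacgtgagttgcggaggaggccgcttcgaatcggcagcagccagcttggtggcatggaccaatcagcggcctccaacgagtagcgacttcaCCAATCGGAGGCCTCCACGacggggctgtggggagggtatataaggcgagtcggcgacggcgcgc
Calr: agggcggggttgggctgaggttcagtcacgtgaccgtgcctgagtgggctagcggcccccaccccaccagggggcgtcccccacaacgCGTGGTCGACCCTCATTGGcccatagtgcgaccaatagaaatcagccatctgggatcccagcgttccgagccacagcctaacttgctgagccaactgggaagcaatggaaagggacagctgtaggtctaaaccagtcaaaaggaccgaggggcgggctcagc
Pdia6: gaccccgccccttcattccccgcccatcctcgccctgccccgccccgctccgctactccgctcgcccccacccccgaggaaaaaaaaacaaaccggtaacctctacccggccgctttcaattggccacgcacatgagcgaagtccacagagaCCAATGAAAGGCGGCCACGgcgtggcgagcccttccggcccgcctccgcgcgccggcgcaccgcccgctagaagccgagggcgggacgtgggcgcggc
The windows are chr15:88819396-88819645 (plus strand) for Creld2, chr2:34771840-34772089 (plus strand) for Hspa5, chr8:84846932-84847181 (minus strand) for Calr and chr12:17266339-17266588 (plus strand) for Pdia6. The match begins 126 bases before the start in Creld2, 65 in Hspa5, 162 in Calr and 98 in Pdia6, and it reads on the opposite strand in Creld2 and Calr. The other 3 genes with a match differed by 0.0375 (Canx, calnexin, -0.125 after quantile normalization), 0.224 (Dnajc3) and 0.204 (Hsp90b1). A match is a description of the sequence.

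Heat shock proteins and other chaperones showed a like count. Of 21 tested genes, 6 were higher and 0 lower at an unadjusted limma p under 0.05, beside 7.28% and 2.23% of all genes. The median was 0.134 against 0.105 in controls, and 3 were higher without HFD replicate 2. Stip1, a co-chaperone that links HSP70 to HSP90, read 13.69, 13.72 and 13.72 on SD and 14.12, 14.36 and 14.31 on HFD. The SD arrays lay within 0.03 of each other and well below all HFD arrays. The difference was 0.551 ± 0.128 (limma adjusted p = 0.225), against 0.221 in controls. Hsph1, a nucleotide exchange factor of HSP70, was higher by 0.569 ± 0.134, and by 0.363 in controls (limma adjusted p = 0.524). Chordc1, an HSP90 partner, was higher by 0.66 ± 0.205. Hsp90aa1, the inducible cytosolic HSP90, was higher by 0.239 ± 0.0846. Unlike in the ER list, the median in controls was close to that in the arrays labelled cKO, and neither list's difference between genotypes was tested. The heat shock element is GAA, TTC and GAA (or TTC, GAA and TTC) with 2 bases of any kind between neighbours. It stood in 2 of 17 promoters of this list (11.8%) against 0.514% of all genes. The genes with a match were Hspd1, higher by 0.201, and Hspe1, which differed by 0.165. Of these, only Hspd1 was among the 6 counted as higher. The promoters of Stip1, Hsph1 and Chordc1 held no match.

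**Figure D3:**
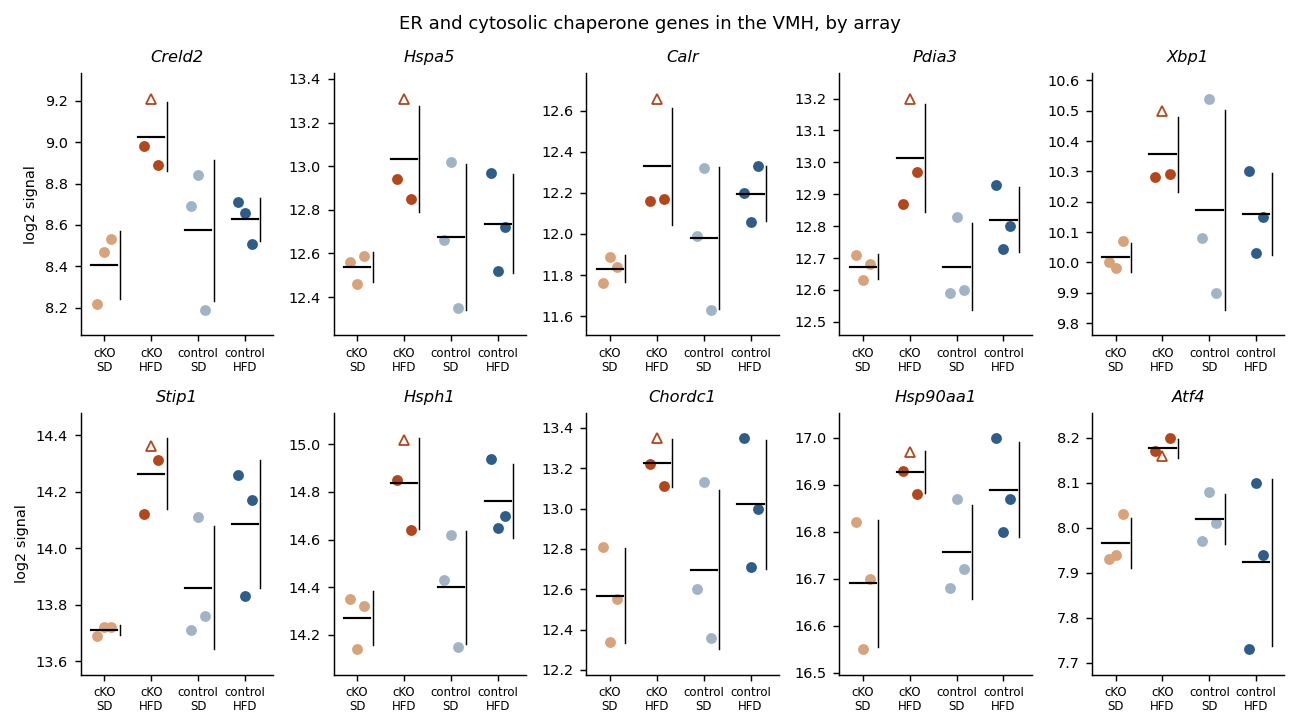
Log2 signal of 10 genes of the ER and cytosolic stress responses in each VMH array, by genotype and diet. Points are arrays, horizontal lines means and vertical lines ± 1 SD (n = 3); the open triangle is HFD replicate 2 of the arrays labelled cKO, which is the highest of its group for all genes shown except Atf4, and no HFD array of the arrays labelled cKO lies below their SD arrays.

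Neuronal genes leaned higher on HFD. Of 25 VMH neuron markers, 8 were higher and 0 lower at an unadjusted limma p under 0.05, beside 7.28% and 2.23% of all genes. Their median was 0.205, against 0.037 in controls. Without HFD replicate 2 the count was 4 and the median 0.199, and without SD replicate 2 the count was 5. Fezf1 read 14.96, 14.78 and 14.81 on SD and 15.48, 15.60 and 15.25 on HFD, with no overlap. It was higher by 0.595 ± 0.187 (limma adjusted p = 0.35), against 0.356 in controls. Nptx2, a secreted pentraxin that gathers glutamate receptors at synapses, read 9.04, 9.20 and 9.18 on SD and 9.57, 9.86 and 9.45 on HFD. Cckbr, a receptor of cholecystokinin, read 7.89, 7.75 and 8.35 on SD and 8.53, 8.46 and 8.51 on HFD. For both genes all HFD arrays were higher, though Cckbr in SD replicate 3 came close. Nptx2 differed by 0.489 ± 0.142 and Cckbr by 0.503 ± 0.174. Adcyap1, the gene of the peptide PACAP, was higher by 0.474 and Sox14, a transcription factor, by 0.422. Nr5a1, the defining gene, read 7.53, 7.84 and 8.03 on SD and 8.25, 8.20 and 8.08 on HFD. The diets did not overlap, but the margin was small and the difference of 0.38 ± 0.176 had an unadjusted limma p of 0.0541.

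Of 26 general neuron and synaptic vesicle genes, 8 were higher and 0 lower at an unadjusted limma p under 0.05, beside 7.28% and 2.23% of all genes. Their median was 0.126, against -0.006 in controls. The count was 3 without SD replicate 1, 4 without SD replicate 3, 5 without HFD replicate 1, 6 without HFD replicate 2 and 4 without HFD replicate 3. After quantile normalization it was 4, with a median of 0.066. Stx1a, a SNARE protein of vesicle release, read 8.95, 8.99 and 9.05 on SD and 9.22, 9.33 and 9.45 on HFD, a difference of 0.339 ± 0.0751 (limma adjusted p = 0.212). Sv2b, a vesicle glycoprotein, was higher by 0.451 ± 0.125, Stmn3, a tubulin-binding protein, by 0.255 ± 0.0735 and Tubb3, the neuronal tubulin, by 0.268 ± 0.107. The mean signal of this list was 11.61, 11.78 and 11.71 on SD and 11.84, 11.75 and 11.90 on HFD, so the diets overlapped at the level of the whole list. Among 32 glutamate and GABA receptor subunits, 5 were higher and 1 lower. Gabra3, a GABA-A receptor subunit, was higher by 0.234 ± 0.062 and Grik4, a kainate receptor subunit, by 0.192 ± 0.0663. After quantile normalization the count in this list was 1 higher and 2 lower, without SD replicate 2 it was 3 and 0, and without HFD replicate 1 it was 3 and 1.

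Receptors for signals of energy balance were mixed. Of 24 tested, 4 were higher and 1 lower at an unadjusted limma p under 0.05, beside 7.28% and 2.23% of all genes. Their median was 0.027, close to that of all genes. Only 2 were higher without SD replicate 2, and likewise without HFD replicate 2. The median was -0.027 without SD replicate 1. Htr1b, a serotonin receptor, read 8.79, 8.86 and 8.99 on SD and 9.41, 9.21 and 9.14 on HFD, a difference of 0.372 ± 0.0994. Npy1r, a receptor of neuropeptide Y, was higher by 0.461 ± 0.176, and Gpr83 by 0.248 ± 0.0778. In both of these the difference in controls was larger, 0.767 and 0.468, at unadjusted limma p-values of 0.0012 and 9.4e-05. Lepr, the leptin receptor, read 8.10, 7.61 and 8.08 on SD and 7.38, 7.70 and 7.73 on HFD. The diets overlapped through SD replicate 2, and the difference was -0.324 ± 0.135 (limma adjusted p = 0.491). Avpr1a, a vasopressin receptor, had a higher statistic than any receptor of the list. It read 6.64, 6.40 and 6.41 on SD and 7.19, 7.10 and 7.13 on HFD. The margin between diets was wider than the range within them, with a difference of 0.659 ± 0.114 (limma adjusted p = 0.133), against -0.0452 in controls.

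Feeding peptides gave no call. Pomc, the precursor of melanocortins, read 7.14, 7.04 and 8.06 on SD and 7.32, 10.39 and 8.69 on HFD. Its highest value came from HFD replicate 2, the array with the strongest pituitary hormone signal, and pituitary cells also make Pomc. The difference of 1.38 ± 0.611 (limma adjusted p = 0.515) became 0.589 without that array. Control arrays read 7.37, 7.63 and 7.92 on SD and 7.97, 8.97 and 8.42 on HFD, higher on HFD with no overlap. How far pituitary tissue moved with the Pomc values was not tested. Npy differed by 0.832 ± 0.698, with 10.61 in HFD replicate 3 and at most 8.57 in the others. Of 12 other hypothalamic peptides, 0 reached an unadjusted p under 0.05 in either direction. Trh, the precursor of thyrotropin-releasing hormone, ranged from 8.80 to 12.16 on SD alone, and Sst (somatostatin) differed by 0.0232 ± 0.222. Immediate early genes, induced by neuronal activity, had 2 higher and 1 lower of 19, with a median of 0. Homer1, a scaffold of glutamate synapses, was higher by 0.262 in the arrays labelled cKO and by 0.253 in controls.

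Genes that respond to glucocorticoids leaned the other way. Of 19 tested, 4 were lower and 0 higher at an unadjusted limma p under 0.05, beside 2.23% and 7.28% of all genes, and 16 had a negative difference. Their median was -0.125, against -0.023 in controls, and without HFD replicate 2 the count was again 4 with a median of -0.082. The count was also 4 without SD replicate 3 and without HFD replicate 3, with medians of -0.079 and -0.07. Zbtb16, a transcription factor induced by glucocorticoids, read 7.66, 7.55 and 8.01 on SD and 7.02, 6.69 and 6.95 on HFD. All HFD arrays lay below the SD arrays, with a difference of -0.852 ± 0.176 (limma adjusted p = 0.199). Mertk, a receptor by which astrocytes and microglia take up debris, read 8.44, 8.40 and 8.51 on SD and 8.04, 7.96 and 7.82 on HFD. Its control arrays lay between 7.93 and 8.25 on both diets, so the cKO arrays on SD were above all other VMH arrays. Mertk differed by -0.509 ± 0.0878 (limma adjusted p = 0.133), with an unadjusted interaction p of 0.00067 that did not pass the adjustment. Sult1a1, a sulfotransferase, differed by -0.525 ± 0.139.

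Cdkn1a, the cell cycle inhibitor p21, belongs both to this list and to the genes that earlier results of these arrays linked to genotype. It read 8.87, 9.37 and 9.16 on SD and 8.74, 8.35 and 8.32 on HFD, with HFD replicate 1 close to the SD range. Control arrays lay between 6.54 and 7.02. The difference was -0.664 ± 0.157 (limma adjusted p = 0.225), so on HFD Cdkn1a stayed above all control arrays. The most familiar targets of the receptor were small in size, a choice made after their values were seen. Fkbp5, a co-chaperone of the receptor, differed by -0.0555 ± 0.0899, Tsc22d3 (GILZ) by -0.194 ± 0.133 and Nr3c1, the receptor itself, by -0.0229 ± 0.0813. In all 3 the diets overlapped.

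The genes that earlier results linked to genotype were chosen on these same arrays and are no independent list. Of all 20, Cdkn1a and Fabp7 included, 2 were higher and 4 lower at an unadjusted limma p under 0.05, beside 7.28% and 2.23% of all genes. Without HFD replicate 1, 2 or 3, 1 was higher each time and 2, 5 and 4 lower, and without SD replicate 3, 1 was higher and 4 lower. Zkscan2, a zinc finger gene, read 8.73, 8.68 and 8.67 on SD and 8.37, 8.47 and 8.30 on HFD, a difference of -0.315 ± 0.0567. Its control arrays differed by 0.134 in the opposite direction. Impa1, an inositol monophosphatase, was higher by 0.356 ± 0.0759. Mmp14, a membrane-bound matrix protease, read 9.15, 9.69 and 9.15 on SD and 8.87, 8.91 and 9.09 on HFD. Its difference of -0.38 was close to that in controls, -0.333. Id2, an inhibitor of basic helix-loop-helix factors, differed by -0.341 ± 0.135, while Fabp7 differed by -0.0966 ± 0.329, within the spread of its arrays.

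Clock genes differed little with diet. Of 17 core clock genes, 1 was higher and 0 lower at an unadjusted limma p under 0.05, with a median of 0.021. That gene was Bhlhe40, a repressor of the clock, which read 8.48, 8.35 and 8.68 on SD and 8.65, 8.99 and 8.90 on HFD. HFD replicate 1 fell within the SD range, and the difference was 0.342 ± 0.11. Of 15 clock output genes, 2 were lower. Hlf, a PAR bZIP factor, differed by -0.364 ± 0.138 and Lonrf3 by -0.199 ± 0.0875. Npas2, a partner of Bmal1, differed by 0.135 ± 0.155.

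**Figure D4:**
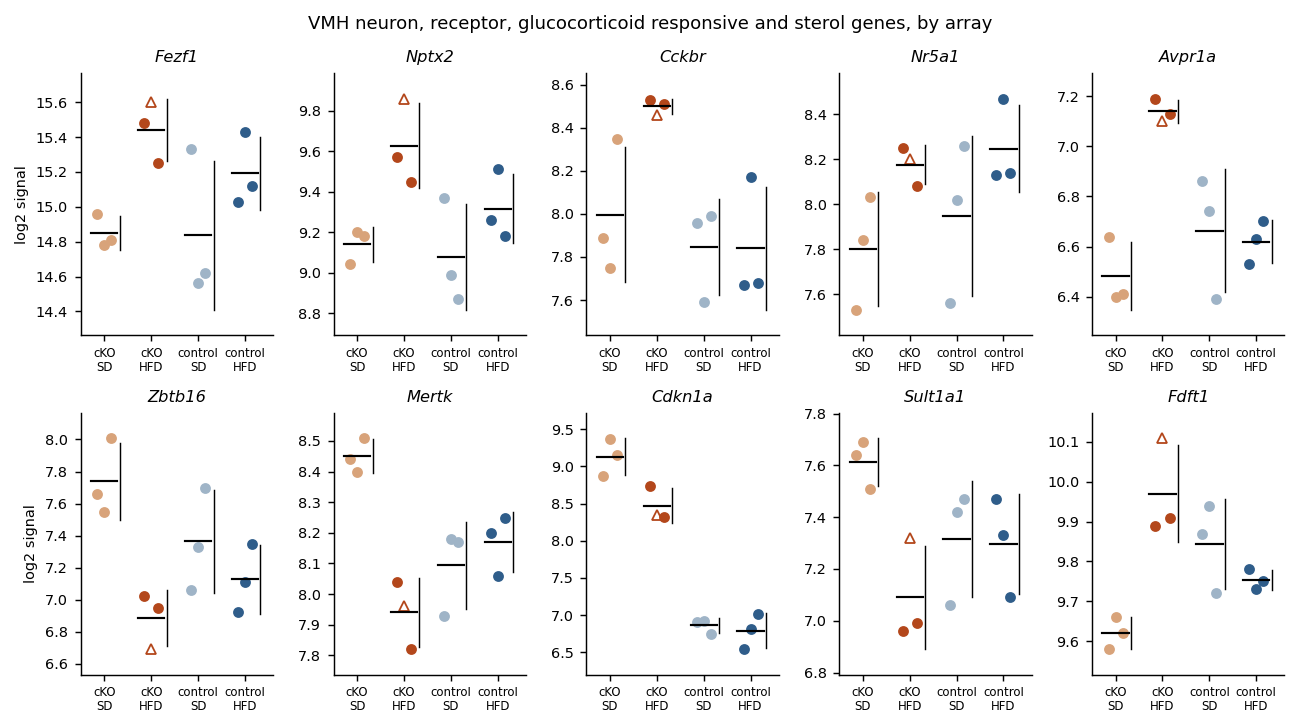
Log2 signal of 10 genes in each VMH array, by genotype and diet. Points are arrays, horizontal lines means and vertical lines ± 1 SD (n = 3); the open triangle is HFD replicate 2 of the arrays labelled cKO. Fezf1, Nptx2, Cckbr, Nr5a1, Avpr1a and Fdft1 are higher on HFD in all arrays labelled cKO and Zbtb16, Mertk, Cdkn1a and Sult1a1 lower; the control arrays of all 10 genes overlap between diets.

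Astrocyte genes gave no call. Of 23 homeostatic astrocyte markers, 0 reached an unadjusted limma p under 0.05, and 4 were lower in all HFD arrays than in all SD arrays, beside 5.69% of all genes. Aqp4, the water channel of astrocyte endfeet, read 8.63, 8.65 and 8.68 on SD and 8.25, 8.53 and 8.38 on HFD. Gjb6, a gap junction protein, differed by -0.281 ± 0.133 and Slc1a2, the main glutamate transporter, by -0.126 ± 0.0706. Gfap, the intermediate filament that marks reactive astrocytes, read 12.77, 13.26 and 12.91 on SD and 12.02, 13.00 and 12.23 on HFD. The diets overlapped through HFD replicate 2, and the difference was -0.564 ± 0.448. Of 13 reactive astrocyte genes, 0 reached that p. Serpina3n, an acute phase protein, read 10.25, 9.98 and 10.08 on SD and 9.98, 10.75 and 11.66 on HFD, a difference of 0.692 ± 0.41, against 1.35 in controls (limma adjusted p = 0.459).

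Inflammatory genes were few among those measured. Of 9 tested genes of NF-kB and the inflammatory cytokines, 0 reached an unadjusted limma p under 0.05. Among 21 markers of microglia and macrophages, 1 was higher and 1 lower. Mrc1, the mannose receptor of perivascular macrophages, read 6.42, 6.46 and 6.14 on SD and 5.77, 6.05 and 6.0 on HFD, a difference of -0.405 ± 0.111. C1qa, a complement subunit of microglia, was higher by 0.239 ± 0.0843. Aif1 (IBA1) differed by 0.0115 ± 0.0834. Of 14 interferon response genes, 0 reached that p and 12 had a negative difference. In 4 the diets did not overlap, all lower, beside 5.69% of all genes. Among them was Ifit3, an antiviral protein, at -0.503 ± 0.267. The median of the interferon list was -0.123 in the arrays labelled cKO and 0.107 in controls.

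Genes of matrix and meninges had more low than high values, in counts that moved with single arrays. Of 22 extracellular matrix genes, 5 were lower and 1 higher at an unadjusted limma p under 0.05, beside 2.23% and 7.28% of all genes. Their median was -0.093. Without HFD replicate 2 the counts were the same, without SD replicate 3 they were 3 lower and 2 higher, and without HFD replicate 1 they were 3 lower and 0 higher. Nid1, a protein of the basement membrane, read 5.97, 6.03 and 6.03 on SD and 5.62, 5.78 and 5.74 on HFD, a difference of -0.297 ± 0.0875. Timp3, an inhibitor of metalloproteases, differed by -0.435 ± 0.136, Lama4, a vascular laminin, by -0.241 ± 0.0846 and Bcan (brevican) by -0.299 ± 0.109. Hapln4, a link protein of perineuronal nets, was higher by 0.422 ± 0.143. Among 13 tested genes of choroid plexus, pituitary and meninges, 3 were lower and 1 higher, with a median of -0.237. Without HFD replicate 1 this balance turned to 1 lower and 3 higher, with a median of -0.121, while the fit of only the groups compared gave 6 lower and array weights 5. Igf2, made by meninges and choroid plexus, read 9.49, 9.07 and 9.10 on SD and 7.57, 8.05 and 8.55 on HFD, a difference of -1.16 ± 0.383. Ogn, a proteoglycan of the meninges, read 9.83 in HFD replicate 1 against 12.06 to 12.59 on SD and 11.64 in both other HFD arrays. Control arrays ranged from 9.31 to 12.81, so this signal varied as widely within diets there. Ttr and Folr1, markers of choroid plexus, averaged below the filter. Ttr still read 6.67 in HFD replicate 1 of the arrays labelled cKO and 7.62 in control HFD replicate 1. In all other VMH arrays Ttr read at most 5.41. How far the border of the dissection moved with the neuronal and matrix genes was not tested.

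Oligodendrocyte genes gave no lean that held without each array. The median over 24 genes was -0.179 in the arrays labelled cKO and -0.335 in controls, with 0 genes lower at an unadjusted limma p under 0.05 in the arrays labelled cKO. The mean of the list was 8.81, 9.64 and 9.30 on SD and 9.14, 9.0 and 9.14 on HFD, so the diets overlapped. Without SD replicate 2 the median was -0.002, with 12 of 24 differences positive. Only Olig2, the transcription factor of the lineage, was higher at an unadjusted limma p under 0.05. It read 8.65, 9.05 and 8.76 on SD and 9.28, 9.49 and 9.43 on HFD, a difference of 0.585 ± 0.107 (limma adjusted p = 0.14). Control arrays read 8.99, 9.20 and 9.13 on SD and 8.79, 8.99 and 8.93 on HFD, a difference of -0.206. The interaction of 0.791 had an unadjusted limma p of 3e-04 and did not pass the adjustment. Mbp, the myelin basic protein, differed by -0.177 ± 0.286.

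Among lipid genes, those of sterol synthesis had more high than low values, in a count that moved with single arrays. Of 25 genes of cholesterol synthesis and sterol sensing, 3 were higher and 0 lower at an unadjusted limma p under 0.05, beside 7.28% and 2.23% of all genes. The count was 2 without SD replicate 1, SD replicate 3, HFD replicate 1 or HFD replicate 2, and 4 without HFD replicate 3. In 9 genes the diets did not overlap, all higher, beside 11.8% of all genes. The median was 0.07, and 0.034 without SD replicate 1. Fdft1, squalene synthase, read 9.58, 9.66 and 9.62 on SD and 9.89, 10.11 and 9.91 on HFD, a difference of 0.352 ± 0.0742 (limma adjusted p = 0.199), against -0.0922 in controls. Idi1, an isomerase of the same pathway, was higher by 0.267 ± 0.0871. Of 27 genes of fatty acid uptake and oxidation, 1 was higher and 1 lower. Fabp3, a fatty acid binding protein of neurons, read 10.25, 10.40 and 10.31 on SD and 10.61, 10.88 and 10.61 on HFD, a difference of 0.376 ± 0.0859, and Cpt2, a mitochondrial carnitine transferase, differed by -0.295 ± 0.101. Among 20 genes of fatty acid synthesis 1 was higher, Elovl6, an elongase, by 0.197 ± 0.0743. Of 43 genes of oxidative phosphorylation and 23 cytosolic ribosomal proteins, 0 reached that p.

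Apart from the lists, the highest statistics among named protein genes belonged to Slc39a10, a zinc transporter, which read 11.65, 11.77 and 11.66 on SD and 12.07, 12.07 and 12.17 on HFD. It was higher by 0.408 ± 0.0608 (limma adjusted p = 0.133), against 0.228 in controls. Cited1, a transcriptional coregulator, was higher by 0.532 ± 0.0867 and Klhl34 by 0.586 ± 0.0989. Acvr1c, the activin receptor ALK7, read 7.50, 7.45 and 8.0 on SD and 8.16, 8.34 and 8.28 on HFD, a difference of 0.61 ± 0.12. Without SD replicate 3, its highest SD value, Acvr1c differed by 0.782 and passed the adjusted limma test at 0.00531. Camkk2, a kinase upstream of AMPK, was higher by 0.418 ± 0.0864, Gnaz, a G protein subunit, by 0.417 ± 0.0837 and Nme1, a nucleoside diphosphate kinase, by 0.339 ± 0.0647.

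The lowest statistics of protein genes began with Flna, the actin crosslinker filamin A, which read 7.78, 7.75 and 7.71 on SD and 7.42, 7.45 and 7.44 on HFD. The arrays of a diet lay within 0.07 of each other, and the difference was -0.312 ± 0.0522 (limma adjusted p = 0.133). Atp13a5, a P-type ATPase, differed by -0.52 ± 0.101, Haus6, an augmin subunit of the spindle, by -0.328 ± 0.0662 and Fam214a by -0.372 ± 0.0772. Trpm3, a cation channel, read 11.55, 11.57 and 11.59 on SD and 11.32, 11.19 and 11.18 on HFD, a difference of -0.344 ± 0.0828. Control arrays of Trpm3 lay between 10.82 and 11.16, so the HFD arrays labelled cKO were nearer to the controls than the SD arrays were. Ranbp3l, named after its value was seen, differed by -1.49 ± 0.422, with 7.17 in HFD replicate 1.

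In control mice the same diets gave 0 calls by limma (0%) and 1403 genes (8.38%) at an unadjusted p under 0.05, 1042 higher (6.23%) and 361 lower (2.16%). After quantile normalization that balance turned, with 468 higher and 707 lower. Control arrays of the diets did not overlap for 1422 genes higher (8.5%) and 656 lower (3.92%). Of the 1591 genes at that p in the arrays labelled cKO, 189 were at that p in controls with the same sign, which is 11.9% of the first list and 13.5% of the second, and 22 had opposite signs. Map3k5, a stress-activated kinase, read 9.71, 9.76 and 9.84 on SD and 10.15, 10.23 and 10.02 on HFD in the arrays labelled cKO. In controls it read 9.66, 9.76 and 9.72 on SD and 10.19, 10.25 and 10.21 on HFD. Both genotypes were apart by diet, with differences of 0.361 ± 0.0667 and 0.5. Ociad2 was higher by 0.429 ± 0.0777 and by 0.37. The interaction gave 0 calls by limma (0%) and 944 genes (5.64%) at an unadjusted p under 0.05, 542 (3.24%) with a higher and 402 (2.4%) with a lower effect in the arrays labelled cKO, so no gene's diet effect was shown to differ between genotypes. With predicted and small RNA genes left out, its highest statistics were Klhl34 (0.763, limma adjusted p = 0.842), Olig2, Nlrp5 and Avpr1a, and its lowest were Zkscan2 (-0.449, limma adjusted p = 0.842), Fam214a, Mertk and Mysm1.

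**Figure D5:**
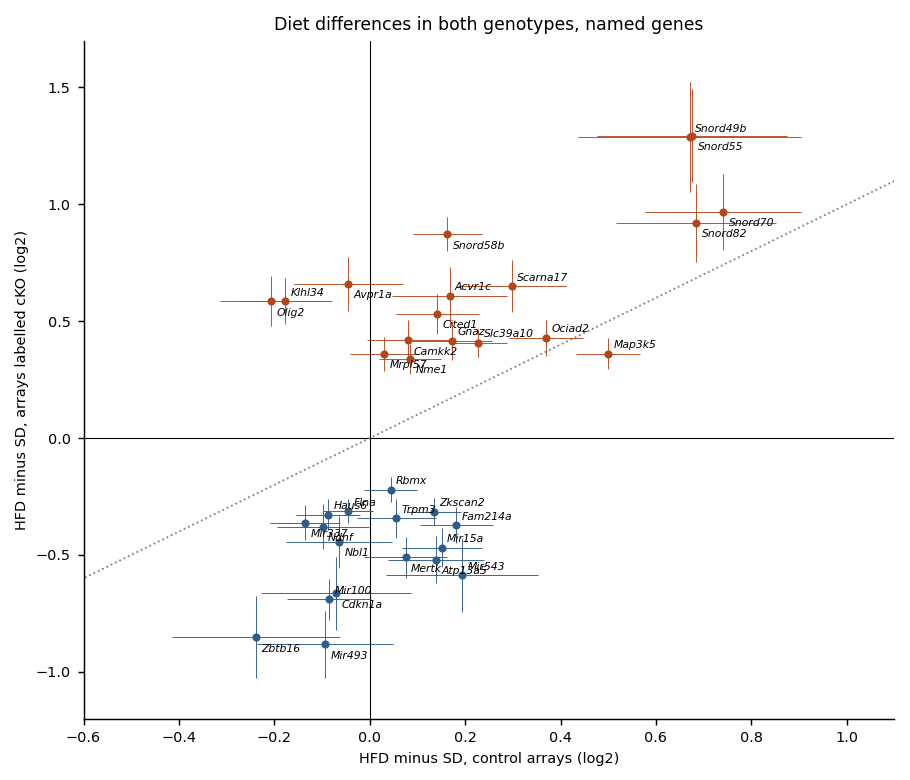
Log2 difference, HFD minus SD, in control arrays (horizontal) and arrays labelled cKO (vertical) for the genes with the highest and lowest statistics and the small RNA genes described. Points are differences and lines ± 1 SE; the dotted diagonal marks equal values. Map3k5 and Ociad2 lie near the diagonal, Snord58b at 0.163 and 0.872 far above it, and Olig2 has opposite signs on the axes.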

How the data were processed

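RNA was read on Affymetrix arrays. The authors deposited log2 signals for each array. Per the submitters' processing notes the tools were Expression Console 1.1.1 and PLIER 2.0, with normalization and genome build not given in the sources used here. Of 72688 features, 6732 were controls and 30604 had 1 gene symbol; only the latter entered comparisons, with symbols updated through GRCm38.p6, used for names and neighbours. The brightest feature stood for a gene.

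Group means of 12 VMH arrays were fitted with limma 3.58.1 (R 4.3.3), and p-values were two-sided with Benjamini-Hochberg adjustment over 16738 genes. Genes named were those past the threshold and the 12 highest and 12 lowest statistics without predicted or small RNA genes. Up to 4 genes per list by smallest p (6 snoRNAs) were added. So were the 4 highest and lowest interaction statistics, defining members and genotype-linked genes. Others were named outside this rule, and not all of them are marked, among them Hspa5, Pdia6, Atf4, Xbp1, Adcyap1, Sox14, Lama4 and Bcan. The members and lists were chosen with earlier results of these data known. Simulated data for this comparison had independent normal noise for each gene and 100 genes changed at each size. There, 94% of changes of 1 and 100% of changes of 2 (log2) were recovered, with 8 false calls of 202. The simulation held no odd array and no link between genes, so these shares need not hold for the measured arrays. In those, Snord55 differed by 1.29 and failed the adjusted test. Alternatives were quantile normalization, a pseudocount of 16, no filter, feature means, only the 6 arrays compared, a trended and robust prior, a replicate block, array weights and each array left out.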

Additional observations from a re-analysis of the deposited data

How the results depend on the processing

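Snord58b kept its sign under all 14 alternatives, with differences from 0.741 (quantile normalization) to 0.925 (without HFD replicate 1), and passed the adjusted limma test under all but the fit of only the groups compared (adjusted p = 0.14). Genes past the adjusted threshold numbered 1 to 3 when each array was left out, 0 with only the groups compared and 22 with array weights, 16 higher and 6 lower. Of 125 genes followed through these settings, 115 kept their sign under every alternative. Many of them were named for their statistics in this same comparison, and every alternative reused these arrays. A kept sign is therefore no independent support. Genes higher at an unadjusted limma p under 0.05 numbered 758 to 1299, and lower ones 293 to 392, when each array was left out; the lowest counts came without HFD replicate 2, and without SD replicate 1 870 were higher. Lower ones numbered 728 without the filter, beside 1401 higher, and 642 with array weights. Among list genes, 81 were higher (50 to 92 with each array left out, 50 without HFD replicate 2) and 29 lower (20 to 32; 44 with array weights).

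In controls, 676 to 1183 genes were higher and 273 to 738 lower with each array left out, and 468 and 707 after quantile normalization, where the balance of directions turned. Lower ones numbered 1056 without the filter and 633 with array weights. For the interaction, 407 to 823 were higher and 283 to 605 lower with each array left out. Higher ones numbered 919 without the filter and 909 with array weights, and lower ones 262 after quantile normalization. The cause of these moves was not tested.

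Signs turned only for small differences or for values that 1 array set. With array weights Arntl differed by -0.0347 and Sst by -0.0873; after quantile normalization Canx differed by -0.125 and Sst by -0.0344. With each array left out, the range was -0.153 to 0.122 for Arntl, -0.0457 to 0.901 for Avp, -0.206 to 4.25 for Gh, -0.16 to 0.0141 for Nop58, -0.177 to 1.4 for Npy, -0.243 to 0.162 for Sst, -0.142 to 0.0235 for Fkbp5, -0.0416 to 0.051 for Aif1 and -0.441 to 0.0205 for Mbp.

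Replicate numbers of the titles did not pair the arrays: deviations of same-numbered arrays labelled cKO correlated at -0.049, 0.019 and -0.08. With the replicate block, 1 gene passed, Snord58b again, at 0.0156, with 1185 higher and 376 lower at an unadjusted p.

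HFD replicate 2 of the arrays labelled cKO held strong pituitary signal, and replicate 3 a weaker signal of Cga and Tshb. With 3 arrays per diet, small differences cannot be settled.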

Other observations

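Several further gene groups had few diet differences in the arrays labelled cKO. Their counts stand beside 7.28% of all genes higher and 2.23% lower at an unadjusted limma p under 0.05. The genes named were picked for the smallest limma p-values of their lists, so these values are no result about the lists. Among 13 genes of leptin and cytokine receptor signalling, Ptpn2, a phosphatase that limits this signalling, read 8.54, 8.53 and 8.44 on SD and 8.75, 8.71 and 8.63 on HFD, a difference of 0.192 ± 0.0718 close to the 0.188 of controls. Stat3, the transcription factor downstream of the leptin receptor, differed by 0.253 ± 0.136 (limma adjusted p = 0.602) and by 0.597 in controls. Of 20 NRF2 oxidative stress genes, 1 was higher and 1 lower at an unadjusted limma p under 0.05. Srxn1, sulfiredoxin, was higher by 0.229 ± 0.0692, and Slc7a11, the cystine transporter, read 10.18 in HFD replicate 1 against 11.09 to 11.30 on SD, a difference of -0.482 ± 0.194 that was -0.224 without that array.

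Among 14 genes of GABA and glutamate synthesis and transport, 2 were lower and 1 higher, with medians of -0.119 and, in controls, -0.19. Slc38a2, an amino acid transporter, read 12.60, 12.71 and 12.69 on SD and 11.87, 12.09 and 11.98 on HFD, with no overlap, and differed by -0.689 ± 0.218. Nrgn (neurogranin), a thyroid-responsive gene of neurons, was higher by 0.564 ± 0.2, and Hr, a corepressor of the thyroid hormone receptor, differed by -0.163 ± 0.0497. Of 23 endothelial and mural genes, 1 was higher and 1 lower; the lower one was Vtn (vitronectin), a marker of pericytes, at -0.581 ± 0.23. Igfbp2, a binding protein of insulin-like growth factors, differed by -0.537 ± 0.176. Proteasome genes had 1 higher and 1 lower of 32, autophagy and lysosome genes 1 higher of 32 and tanycyte and ependymal markers 0 of 15. All of these values failed the adjusted test.

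Features without a single gene symbol were fitted with the rest. Of 15998 such features above the filter, 0 passed the adjusted limma test (lowest adjusted p = 0.141). At an unadjusted p under 0.05, 367 were higher and 844 lower. This balance was opposite to that of the genes with a symbol, of which 7.28% were higher and 2.23% lower. In control arrays 1269 were higher and 279 lower.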
